A study of Homo sapiens with 4 samples.

Results

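A set of 9 genes best known from blood vessels and the cells around them was examined in ovarian cancer cells: the receptor genes PDGFRB, FLT1, NRP1, TEK and ENG, the ligand gene PDGFB, the junction genes CDH5 and PECAM1, and CD14, a monocyte surface gene. They were picked by symbol, 9 of the 56655 gene symbols in the count tables, with their counts in these libraries already known, so what follows on the 9 genes is a description and carries no test. The cells were OVCAR5, an established human cell line that the labels give as a high grade serous ovarian cancer line from ascites, grown in RPMI with serum. One arm carried a nontargeting hairpin in the pLKO.1-puro vector (shCtrl, n = 2 libraries) and the other a hairpin against the transcription factor gene FOXK2 (shFOXK2, n = 2 libraries). Both arms were stable lentiviral lines kept under puromycin, and the knockdown arm rests on a single hairpin, without a second one or a rescue among these libraries. Nothing in the labels says whether the 2 libraries of an arm came from separate cultures. The paper states that n counts biological replicates, and its legend for these RNA data gives n = 2. P-values measure only the spread between these libraries, part of which may be technical.

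In vessels, endothelial cells line the lumen and are held together by VE-cadherin (CDH5) and PECAM1, while pericytes wrap around them. Endothelial cells release PDGF-B, which draws in pericytes through PDGF receptor beta. VEGF ligands act through FLT1, KDR and the co-receptor neuropilin 1, angiopoietins act through TIE2 (the TEK product), and endoglin is a co-receptor for ligands of the TGF-beta and BMP family. CD14 hands bacterial lipopolysaccharide to the TLR4 receptor complex on monocytes and macrophages.

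The sequence before the transcription start was at hand for 5 of the 9 genes (PDGFRB, CD14, ENG, FLT1 and TEK), from RefSeq promoter records of build GRCh38.p14, and not for CDH5, PECAM1, NRP1 and PDGFB. The stretches of PDGFRB, the gene with the largest drop among those still counted in shFOXK2, and of ENG, the only tested gene of the group that was higher, are shown on the minus strand, without the last 27 bases of the PDGFRB window, which GENCODE places inside the gene, and a short stretch of CD14 is shown for its AP-1 match. They lie at chr5:150155873-150156095, chr9:127854659-127854908 and chr5:140633381-140633409. Capitals mark matches to a searched motif.
PDGFRB: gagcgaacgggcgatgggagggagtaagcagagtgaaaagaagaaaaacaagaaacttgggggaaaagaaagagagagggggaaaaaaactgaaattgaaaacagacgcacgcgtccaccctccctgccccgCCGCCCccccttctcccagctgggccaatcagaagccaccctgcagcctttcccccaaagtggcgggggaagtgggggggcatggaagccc
ENG: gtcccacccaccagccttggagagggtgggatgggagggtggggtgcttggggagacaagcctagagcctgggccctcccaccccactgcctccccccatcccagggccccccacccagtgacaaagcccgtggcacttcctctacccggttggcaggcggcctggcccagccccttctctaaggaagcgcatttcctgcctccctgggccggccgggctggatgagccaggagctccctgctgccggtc
CD14: cctggggcgccTGAGTCAtcaggacactg

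A set of 7 motifs was searched on both strands in the 250 bases before each RefSeq start. The TEK starts, which lie 84 and 309 bases inside the TEK gene of GENCODE, were both searched. The window of the latter lies wholly inside that gene. The forkhead letters GTAAACA and the shorter TAAACA, which lies inside the longer form, were found before none of the 5 genes, against 2.98% and 11% of 35116 promoters. The ETS core CCGGAA (14.5% of all promoters) and the hypoxia core ACGTG (18.5%) were likewise without a match, which says only that these letters are not in these windows. The AP-1 letters TGANTCA, held by 6.57% of promoters, stood 223 bases before the CD14 start of RefSeq. That start lies 525 bases inside the longer CD14 gene of GENCODE, so the whole CD14 window and its match lie inside that gene. The GC box GGGCGG, held by 42.6%, was found before PDGFRB (as CCGCCC on the strand shown, 118 bases before the RefSeq start) and before FLT1. A TATAAA box, held by 10.7%, was found before FLT1, 31 bases from its start. The ENG stretch had no match to any of the 7. A match is a description of letters and not evidence of binding.

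Library totals ran from 14284005 to 21950873 counts, so that 3 counts, taken as the floor below which a gene was not called present, were 0.134 to 0.21 CPM (counts scaled to a common library total, scaled by the trimmed mean of M values). Of 16417 genes tested with edgeR's quasi-likelihood test, 48.4% passed an adjusted p of 0.05, 25.7% higher and 22.7% lower in shFOXK2, and for 75.4% the 2 groups of libraries did not overlap. The targeted gene FOXK2 had 80.4 and 93.3 CPM in shCtrl and 76.2 and 59.4 CPM in shFOXK2. Its log2 fold change was -0.36 (SE 0.25, adjusted p = 0.257, edgeR), so its transcript was lower in both knockdown libraries without passing the test. With offsets on the GC and A content of transcripts the FOXK2 change was -0.06 and -0.03, so most of this drop was lost. The paper reports less FOXK2 mRNA by qRT-PCR and less protein by Western blot in its shFOXK2 OVCAR5 cells. Pearson's r over the log2 CPM of all tested genes, which are not independent replicates, was 0.985 and 0.981 within groups and 0.857 to 0.879 between them. In bulk RNA, fewer cells that express a gene and less RNA of it per cell cannot be told apart.

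Of the 9 genes, 7 had enough counts to be tested. Of these, 6 were lower in shFOXK2 and 1, ENG, was higher, all 7 past the threshold. PDGFRB and CDH5 came through the filter on their shCtrl counts alone, so being tested already favoured a drop for them. Since the genes were chosen with these values known, the count is given beside the percentages above and nothing is read from it. The median log2 fold change of the 7 was -1.41, also with CDH5 set at its bound, against 0.04 for all tested genes. In 8 of the 9 genes the 2 groups of libraries did not overlap in CPM, and TEK was the exception. The 8 include the untested FLT1, with 0 and 1 counts in shCtrl against 2 and 9 in shFOXK2. Among tested genes it was all 7, beside 75.4% of all genes tested. Summed over the 9 genes, the shCtrl libraries held 338 and 366 CPM and the shFOXK2 libraries 159 and 164 CPM, of which NRP1 alone made up 60.3% to 77.4%.

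**Figure D1:**
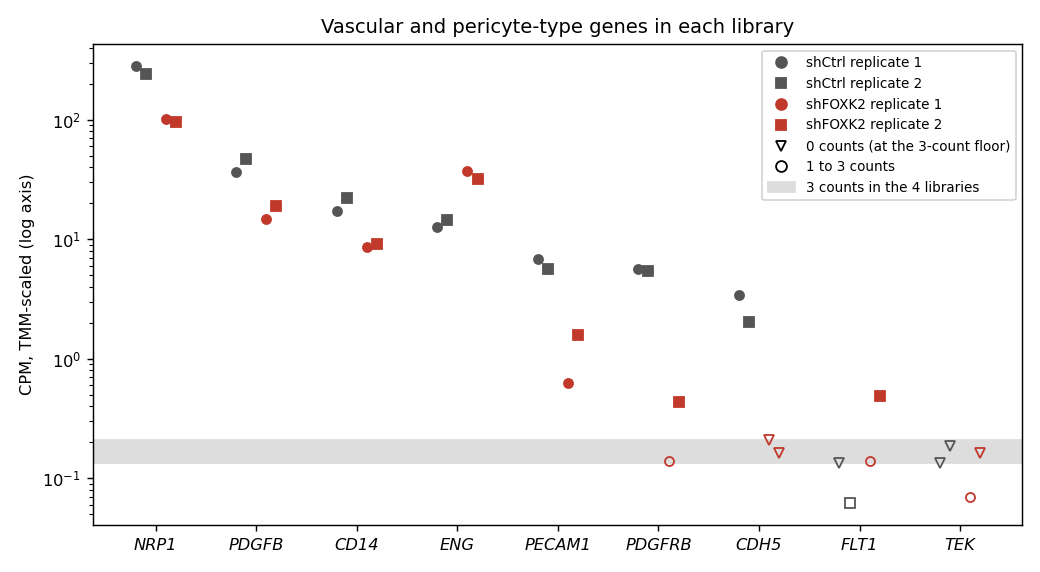
Level of each of the 9 genes in each of the 4 libraries, in CPM on a log axis, with 0 counts drawn as open triangles at 3 counts and values of 1 to 3 counts as open symbols. In this plot 6 genes sit lower in both shFOXK2 libraries than in both shCtrl libraries, ENG sits higher, CDH5 has no count in shFOXK2, and FLT1 and TEK stay near or under the 3-count band.

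The PDGF receptor gene PDGFRB encodes the tyrosine kinase receptor by which pericytes answer PDGF-B, and lies at chr5:150113839-150155872 on the minus strand. It had 127 and 87 counts in the shCtrl libraries and 2 and 8 counts in the shFOXK2 libraries, which were 5.68 and 5.41 CPM against 0.14 and 0.438 CPM. Both knockdown libraries were far below both controls, and one of them was under the 3-count floor. The mean went from 5.55 ± 0.192 to 0.289 ± 0.211 CPM (SD, n = 2 each), 5.21% of control, or -4.16 on the log2 scale (SE 0.50). Over summed counts, 214 against 10, the shCtrl level was 18.1 times that in shFOXK2, with a 95% exact interval of 9.65 to 38.3 that covers counting error only. Without shFOXK2 replicate 2 the log2 fold change was -5.27 and without shFOXK2 replicate 1 it was -3.67, so its size depended on which knockdown library was used. Of all tested genes, 0.737% had a lower log2 fold change.

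Its ligand gene PDGFB, on chromosome 22 at chr22:39223359-39244982, was counted far more deeply. The shCtrl libraries had 818 and 750 counts (36.6 and 46.7 CPM) and the shFOXK2 libraries 212 and 350 counts (14.9 and 19.2 CPM). Both controls lay above both knockdown libraries, by more than the libraries of either arm differed from each other. The means were 41.6 ± 7.11 and 17 ± 3.04 CPM, or 40.9% of control, and the log2 fold change was -1.29 (SE 0.28).

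The other PDGF genes were taken from a list of 5, of which 4 were tested: 3 fell and none rose past the threshold, with a list median of -1.35. PDGFC, a ligand of the alpha receptor, fell from 103 and 88.8 CPM to 42.9 and 43.6 CPM (log2 fold change -1.15, adjusted p = 0.00182, edgeR). PDGFD, a further ligand of the beta receptor, fell from 29.1 and 15.1 CPM to 6.66 and 8.33 CPM (-1.56, adjusted p = 0.00241, edgeR). The receptor-like gene PDGFRL fell from 48 and 38 counts to 5 and 13 (-2.03, adjusted p = 0.00318, edgeR). PDGFA had 34 and 36.4 CPM against 31.4 and 18.6 CPM and did not pass (-0.49, adjusted p = 0.18, edgeR), although it did without shFOXK2 replicate 1 (-0.95, adjusted p = 0.0379). The alpha receptor gene PDGFRA had between 1 and 4 counts in every library and was not tested. Per kilobase of exon, PDGFC and PDGFA stood at 16 and 7.67 CPM in shCtrl, PDGFB at 10.4 and PDGFRB at 0.778, so the ligand transcripts were more abundant per length than that of the receptor.

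Of the junction genes, CDH5 (chr16:66366690-66404784, plus strand) encodes VE-cadherin, the adhesion molecule of endothelial junctions. It had 76 and 33 counts in shCtrl, 3.4 and 2.05 CPM, and no count in either shFOXK2 library. Against a floor of 3 counts per library, its mean level was at least 14.6-fold lower in shFOXK2. This is the ratio of the mean control CPM to the mean floor of the shFOXK2 libraries, and single pairs of libraries can give less. The control libraries differed from each other by 0.70 on the log2 scale, and both were clearly above the floor. PECAM1 (chr17:64319415-64413776, minus strand), the platelet and endothelial adhesion molecule CD31, gave 154 and 90 counts in the controls against 9 and 29 in the knockdown libraries. These were 6.89 and 5.6 CPM against 0.631 and 1.59 CPM, means of 6.25 ± 0.915 and 1.11 ± 0.677 CPM. The log2 fold change was -2.45 (SE 0.44), and the knockdown libraries differed from each other by 1.19 on that scale, so that it was -3.32 without shFOXK2 replicate 2.

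Among 9 listed intracellular and surface partners of these junction molecules 8 were tested, and 5 fell while none rose, with a median of -1.04. Plakoglobin (JUP), which links cadherins to the cytoskeleton, fell from 337 and 388 CPM to 22 and 32.2 CPM (log2 fold change -3.74, SE 0.28, adjusted p = 1.1e-06, edgeR). The catenin genes CTNND1, CTNNB1 and CTNNA1, which bind the cadherin tail directly or through one another, fell, with log2 fold changes of -1.14, -1.15 and -0.94 (adjusted p = 0.00123, 0.00117 and 0.0044, edgeR). CD177, a neutrophil protein that binds PECAM1, fell from 37 and 27 counts to 6 and 6 (log2 fold change -2.15, adjusted p = 0.00269, edgeR). The catenins serve every cadherin, and the epithelial E-cadherin gene CDH1 also fell, from 20.5 and 16.2 CPM to 0.912 and 1.31 CPM (-4.02, adjusted p = 5.12e-06, edgeR).

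NRP1 (chr10:33177492-33336262, minus strand), the neuropilin that serves as co-receptor for VEGF and class 3 semaphorins, took the most counts of the 9 genes. Its counts were 6323 and 3885 in the controls against 1449 and 1752 after knockdown, or 283 and 242 CPM against 102 and 96 CPM. The groups were far apart relative to their spread: 262 ± 29.2 against 98.8 ± 4.02 CPM, 37.7% of control, or -1.41 on the log2 scale (SE 0.23). An antisense long noncoding RNA shares 561 exon bases with NRP1, and no strand setting of the counting was stated, so reads of the 2 could not be told apart there. FLT1 (chr13:28300346-28495145, minus strand), the VEGF receptor 1 gene, gave 0 and 1 counts in the controls against 2 and 9 in the knockdown libraries, and was not tested. The ratio of the summed counts was 13 with an exact 95% interval of 1.89 to 560, and 9 of the 12 FLT1 counts came from one library.

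The VEGF and semaphorin list held 21 genes, 15 of them tested, with 2 that rose, 7 that fell and a median of -0.66. VEGFA, the main angiogenic ligand, fell from 34.3 and 43.4 CPM to 11.6 and 7.07 CPM (log2 fold change -2.06, SE 0.31, adjusted p = 0.000177, edgeR). PGF, a ligand of FLT1, rose from 23.2 and 26.8 CPM to 42.4 and 46.7 CPM (0.84, adjusted p = 0.0155, edgeR), a call that was lost without shCtrl replicate 1 (adjusted p = 0.0608) or shFOXK2 replicate 2 (0.103). VEGFB did not pass (-0.26, adjusted p = 0.387, edgeR) and turned to 0.01 and 0.11 with offsets on the GC and A content of transcripts. VEGFC had no count in any library, and the VEGF receptor genes KDR and FLT4 had at most 1 and 3 counts in a library, at or under the floor in both arms.

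Among the semaphorin genes of that list, most of whose products bind neuropilins, as VEGF does, SEMA3B fell from 169 and 192 CPM to 46.7 and 63.7 CPM (log2 fold change -1.70, adjusted p = 0.000149, edgeR), and SEMA3G fell by 1.53 (adjusted p = 0.00534). SEMA3E also fell (-1.34, adjusted p = 0.0154, edgeR), but its shCtrl libraries had 25.5 and 11.2 CPM, and the call was lost without shCtrl replicate 1 (-0.66, adjusted p = 0.168) and with scaling by library totals alone (adjusted p = 0.055). SEMA3A had 62.1 and 30.1 CPM against 53.9 and 73.2 CPM, overlapping groups, and its sign turned under several settings: its log2 fold change was 0.46 as reported (adjusted p = 0.257, edgeR) and -0.35 with the GC offset. It passed in opposite directions with the A offset (-0.74, adjusted p = 0.0204) and without shCtrl replicate 1 (1.05, adjusted p = 0.00554), and was -0.04 without shCtrl replicate 2. Of the listed plexins that pair with neuropilins, PLXND1 fell from 100 and 107 CPM to 20.8 and 27.4 CPM (-2.10, adjusted p = 4.35e-05, edgeR). PLXNA1 fell from 182 and 187 CPM to 109 and 91.8 CPM (-0.88, adjusted p = 0.0067, edgeR), and PLXNA3 did not pass (-0.61, adjusted p = 0.0879, edgeR). The only tested plexin that rose was PLXNA2, from 1.92 and 1.56 CPM to 12.9 and 6.74 CPM (2.48, adjusted p = 0.000279, edgeR). The second neuropilin, NRP2, had 14 and 15.3 CPM against 23.2 and 20.2 CPM, which did not pass (0.57, adjusted p = 0.103, edgeR) except with the GC or A offset (0.86 and 0.89).

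TEK (chr9:27109141-27230174, plus strand), the TIE2 receptor gene, had 1 count in one shFOXK2 library and none in the other 3, so it was not detected above the floor and no fold is given. Its angiopoietin ligand genes had few counts but were tested. ANGPT1 rose from 12 and 6 counts to 50 and 56 (log2 fold change 2.81, SE 0.44, adjusted p = 0.000234, edgeR). With the offset on A content its change was 1.12 (adjusted p = 0.0501). ANGPT2 had 7 and 4 counts against 13 and 20, a rise that passed (1.80, adjusted p = 0.0121, edgeR) but not in DESeq2 (adjusted p = 0.132), with the GC offset (0.0638), with the A offset (0.31, adjusted p = 0.62), or without shCtrl replicate 1 (0.101), shCtrl replicate 2 (0.147) or shFOXK2 replicate 2 (0.0862). TIE1, the orphan partner of TIE2, had 31 and 24 counts against 39 and 19 (0.37, adjusted p = 0.552, edgeR) and was -0.49 without shFOXK2 replicate 1. The phosphatase gene PTPRB, with 19 and 5 counts against 10 and 8, did not pass and had no stable sign (-0.12 as reported, 0.80 without shCtrl replicate 1). Of the 5 listed genes 4 were tested, and the median of 1.08 rested on the angiopoietins.

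ENG (chr9:127815013-127854658, minus strand) was the one tested gene of the group that was higher in shFOXK2. The controls held 287 and 234 counts of it and the knockdown libraries 536 and 588, or 12.8 and 14.6 CPM against 37.6 and 32.2 CPM. Each knockdown library alone was above the sum of both controls. The mean went from 13.7 ± 1.21 to 34.9 ± 3.81 CPM, 255% of control, or 1.35 on the log2 scale (SE 0.27). An antisense long noncoding RNA shares 313 exon bases with ENG, again without a stated strand setting.

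The receptors that work with endoglin did not go the same way. BMPR2 and TGFBR1 had overlapping groups and did not pass (log2 fold changes 0.29 and -0.42, adjusted p = 0.513 and 0.342, edgeR). ACVRL1, the type I receptor ALK1, fell from 25 and 16 counts to 1 and 3 (log2 fold change -3.04, adjusted p = 0.00153, edgeR), which left 11.5% of control with an exact 95% interval of 3% to 31.8%. TGFBR2, the type II TGF-beta receptor gene, fell from 331 and 297 CPM to 50 and 56.2 CPM (-2.56, SE 0.24, adjusted p = 5.79e-06, edgeR). TGFBR3, the co-receptor betaglycan and the closest relative of endoglin, was higher, 16.8 and 26.5 CPM against 13.3 and 9.83 CPM (0.90, adjusted p = 0.0298, edgeR), and lost its call without shCtrl replicate 2 (0.63, adjusted p = 0.146) or shFOXK2 replicate 2 (0.51, adjusted p = 0.289). The ligand gene TGFB2, the inhibitor gene SMAD7 and the BMP target gene ID1 fell, with log2 fold changes of -2.13, -1.88 and -1.20 (adjusted p = 6.12e-05, 0.00163 and 0.00105, edgeR). The related genes ID2 and ID3 did not pass (-0.25 and -0.33, adjusted p = 0.402 and 0.327, edgeR). The endoglin ligand genes GDF2 and BMP10 had no count in any library. Over the list of 18 genes, 16 were tested, 5 fell, 1 rose, 10 did not pass, and the median was -0.29.

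CD14 (chr5:140631728-140633700, minus strand) gave 389 and 358 counts in the controls against 124 and 168 in the knockdown libraries, or 17.4 and 22.3 CPM against 8.7 and 9.2 CPM. The knockdown libraries were almost equal and both lay below the lower control. The means were 19.8 ± 3.44 and 8.95 ± 0.356 CPM, 45.1% of control, and the log2 fold change was -1.14 (SE 0.29). Offsets on the GC and A content of transcripts brought it to -0.81 and -0.77.

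Of 15 genes listed for the endotoxin receptor around CD14, 11 were tested, 4 fell and 1 rose, with a median of -0.17. TLR2, a receptor for bacterial lipoproteins that also uses CD14, fell from 115 and 67 counts to 9 and 16 (log2 fold change -2.60, adjusted p = 0.000246, edgeR). LBP, the lipopolysaccharide carrier that loads CD14, fell from 37 and 21 counts to 1 and 5 (-2.98, adjusted p = 0.00123, edgeR), 12.2% of control with an exact 95% interval of 4.31% to 28.3%. TLR4 itself had 9.27 and 4.92 CPM against 9.12 and 11.3 CPM, overlapping groups that did not pass (0.52, adjusted p = 0.237, edgeR) except without shCtrl replicate 1 (1.02, adjusted p = 0.0392). Its co-receptor gene LY96 had 5 to 9 counts and was not tested. The adaptor genes TICAM1 and MYD88 fell (log2 fold changes -1.17 and -1.04, adjusted p = 0.00484 and 0.0133, edgeR), and MYD88 lost its call with the GC offset (adjusted p = 0.0535) or without shFOXK2 replicate 2 (-0.69, adjusted p = 0.142). The kinase gene IRAK1 rose (0.71, adjusted p = 0.0265, edgeR), a call lost without shCtrl replicate 1 (0.50, adjusted p = 0.164) or shFOXK2 replicate 1 (0.53, adjusted p = 0.166).

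**Figure D2:**
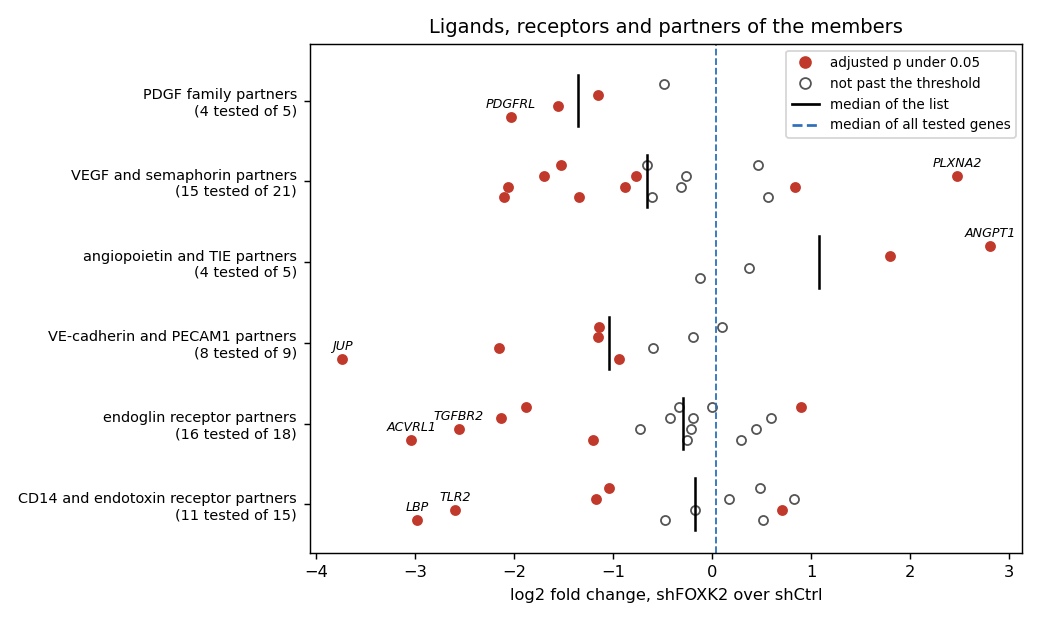
Log2 fold changes, shFOXK2 over shCtrl, of the tested genes in 6 lists of ligands, receptors and partners, with 1 point per gene, filled where the adjusted p was under 0.05, a black bar at each list's median and a dashed line at 0.04, the median of all tested genes. The medians run from -1.35 for the PDGF list to 1.08 for the angiopoietin list, and JUP, ACVRL1 and LBP lie farthest to the left.

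Over all 6 lists, 58 of 73 genes were tested, 24 fell and 6 rose, so 51.7% passed against 48.4% of all tested genes. By direction, 41.4% of the tested partners were lower and 10.3% higher, against 22.7% and 25.7% of all tested genes. Their median log2 fold change was -0.49. The lists, like the 9 genes, were put together with earlier results of these libraries known.

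**Figure D3:**
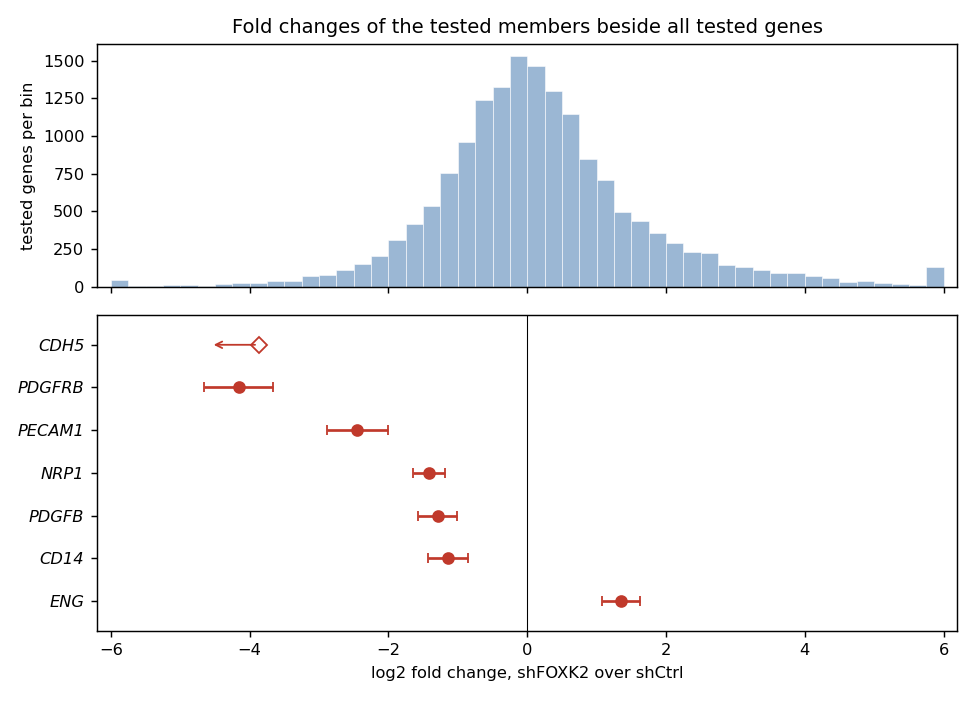
Histogram of the log2 fold change of all 16417 tested genes (upper panel, bins of 0.25, the end bins holding all values beyond) and, on the same axis, the 7 tested genes with SE bars (lower panel, with CDH5 as an open diamond at its bound of -3.87 and an arrow). PDGFRB at -4.16 stands in the far left tail, PECAM1 at -2.45 in the left shoulder, and ENG at 1.35 is the only one on the right.

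Within the group the size of the difference was not uniform. A log2 fold change of -2 or below was seen in 5.27% of tested genes and in PDGFRB, CDH5 and PECAM1 among the 9. NRP1, PDGFB and CD14 were between -1.41 and -1.14, where 10.7%, 12.4% and 14.7% of tested genes had lower values. The 3 genes with the deepest drops were also the 3 with the fewest counts among those tested, between 33 and 154 in a control library.

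Levels per length, in CPM per kilobase of exon, gave the order of the 9 genes. Length was the union of all annotated exons of a gene, 11522 bases for NRP1 and 3840 for ENG. The canonical transcripts have 5640 and 2946 bases, so the order depends on this choice. By canonical length NRP1 would lead ENG in shFOXK2 as well. In shCtrl NRP1 came first at 22.8 ± 2.53, CD14 and PDGFB followed at 12 ± 2.09 and 10.4 ± 1.78 and could not be told apart from each other, and ENG came next at 3.57 ± 0.315. PECAM1 and PDGFRB, at 0.807 ± 0.118 and 0.778 ± 0.0269, did not differ beyond their spread, and CDH5 was below them at 0.454 ± 0.159, with FLT1 and TEK near 0. In shFOXK2 ENG (9.09 ± 0.993) and NRP1 (8.58 ± 0.349) led without differing beyond their spread, ahead of CD14 (5.43 ± 0.216), PDGFB (4.26 ± 0.761) and PECAM1 (0.143 ± 0.0874), while the ranges of PDGFRB, FLT1, TEK and CDH5 ran into one another near 0. Among 14393 tested genes with a length, NRP1 stood above 86.4% in shCtrl and 68.7% in shFOXK2, and PDGFRB above 21.4% and 1.07%. ENG went the other way, from above 47.7% to above 70.3%. The ratio of ENG to PDGFB in CPM per kilobase was 0.342 in shCtrl and 2.13 in shFOXK2.

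**Figure D4:**
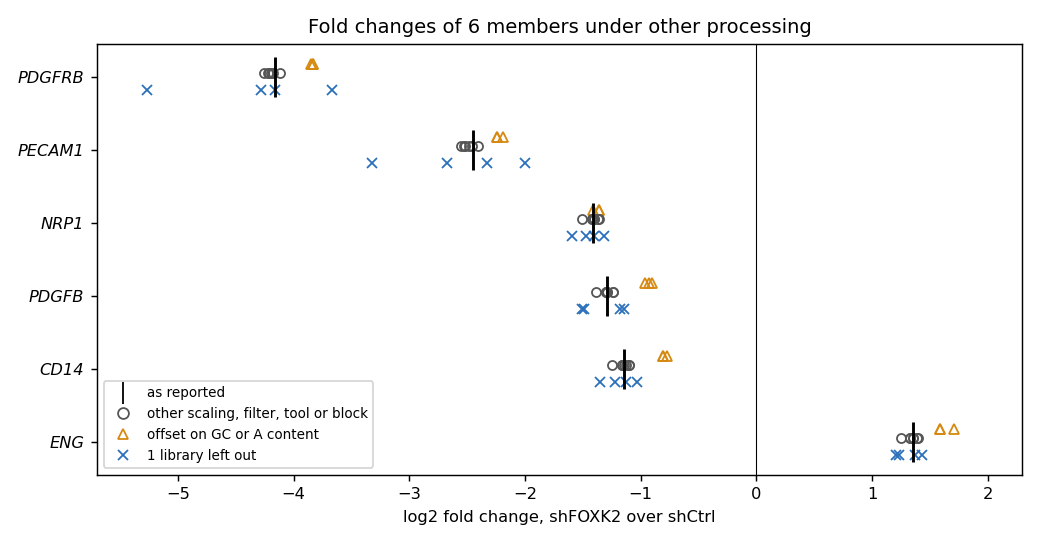
Log2 fold change, shFOXK2 over shCtrl, of 6 of the 9 genes as reported (black bars) and under other scalings, filters, tools or the replicate block (circles), composition offsets (triangles) and with 1 library left out (crosses). Each gene stays on its side of 0, PDGFRB and PECAM1 spread most when 1 library is left out, and the offsets bring PDGFB and CD14 closer to 0 and take ENG farther from it.

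The genes with the most similar pattern were found by the Euclidean distance of log2 CPM over the 4 libraries, as a description. For PDGFRB the nearest was HLA-DRB1 (distance 0.24), with 114 and 99 counts against 2 and 8, whose reads may be shared with related HLA genes, followed by TRIM31 (0.48) and KLK10 (0.73). For CDH5 they were TNF (0.39), DRD1 (0.42) and VNN3 (0.62), all with at most 1 count in a shFOXK2 library. PECAM1 lay nearest to AOAH, SELENOP and CIITA (0.44 to 0.54), and CD14 to CD83, CYTH1 and CMTM8 (0.11 to 0.22). ENG was nearest to RGL3, MZF1 and PVT1 (0.15 to 0.25), NRP1 to GPR107, SYNJ2 and PARP4 (0.23 to 0.26), and PDGFB to ACAT2, CCDC115 and RXRB (0.21 to 0.23). With 4 libraries, any gene of the same level and fold is near.

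Whether the libraries held vessel, mural or blood cells was looked at with marker lists that leave the 9 genes out. Of 23 endothelial markers 8 were tested, 2 fell, none rose and the median was -0.28, and the summed level was 94 and 120 CPM in shCtrl and 88 and 89.9 CPM in shFOXK2. The defining transcription factor gene ERG and the surface gene CD93 had no count in any library, VWF had 7, 1, 0 and 7 counts, and CD34 had 5, 5, 0 and 4. The 2 that fell were ROBO4, a vascular guidance receptor gene (110 and 96 counts against 11 and 38, log2 fold change -1.89, adjusted p = 0.0032, edgeR), and MMRN2, a matrix gene (-1.21, adjusted p = 0.0173, edgeR), which lost its call without shFOXK2 replicate 1 (-0.77, adjusted p = 0.105) and with the GC and A offsets (adjusted p = 0.0911 and 0.0927). The tight junction gene CLDN5 had 12 and 6 counts against 15 and 16 and did not pass (1.04, adjusted p = 0.0989, edgeR). Of the 23 markers 9 had at most 3 counts in every library. Others were well counted in both groups without passing the test, among them EGFL7 at a mean of 58.8 and 50.8 CPM, ESAM at 16 and 18.7 CPM and ICAM2 at 9.33 and 7.79 CPM.

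For pericytes and smooth muscle, 9 of 15 markers were tested, 4 fell, 2 rose and the median was -1.08. The summed level was 631 and 708 CPM in shCtrl and 213 and 218 CPM in shFOXK2, nearly all of it MCAM, an adhesion gene also known from carcinoma cells, at 594 and 667 against 188 and 188 CPM (log2 fold change -1.74, adjusted p = 6.97e-05, edgeR). NOTCH3 fell from 133 and 88 counts to 19 and 28 (-1.98, adjusted p = 0.000708, edgeR), and the contractile gene CNN1 from 67 and 74 to 2 and 7 (-3.75, adjusted p = 0.000111, edgeR). CSPG4, the NG2 proteoglycan of pericytes, fell (-1.08, adjusted p = 0.0121, edgeR) but not past the threshold with the A offset (-0.73, adjusted p = 0.0734) or without shFOXK2 replicate 1 (-0.78, adjusted p = 0.0951). The smooth muscle myosin gene MYH11 rose from 21 and 20 counts to 65 and 93 (2.16, adjusted p = 0.000567, edgeR), as did RGS5 from 23 and 9 to 51 and 39 (1.79, adjusted p = 0.00583, edgeR), a call lost with the GC offset (0.92, adjusted p = 0.101), the A offset (0.78, adjusted p = 0.166) or without shCtrl replicate 2 (1.39, adjusted p = 0.0597). ACTA2 had 26 and 31 counts against 5 and 18 and did not pass (-1.13, adjusted p = 0.0904, edgeR) except with no filter (-1.23, adjusted p = 0.0334) or without shFOXK2 replicate 2 (-2.12, adjusted p = 0.00743).

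Of 16 monocyte markers only 3 were tested. The pan-leukocyte gene PTPRC had 0, 0, 3 and 0 counts, and CD163, FCGR1A, TYROBP, AIF1 and CCR2 had none, while CD14 had over 100 counts in every library. ITGAM, an integrin gene, fell from 161 and 130 counts to 3 and 22 (log2 fold change -3.35, adjusted p = 0.000205, edgeR), and CSF1R had 4 to 12 counts and did not pass (1.08, adjusted p = 0.124, edgeR). The summed monocyte level was 9.49 and 8.96 CPM in shCtrl and 2.46 and 3.89 CPM in shFOXK2, most of it ITGAM in shCtrl. Over the endothelial, mural and monocyte lists together 20 of 54 markers were tested, 7 fell and 2 rose, 45% against 48.4% of all tested genes. By direction, 35% of the tested markers were lower and 10% higher, against 22.7% and 25.7% of all tested genes. The part of these markers in the values of the 9 genes was not tested.

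**Figure D5:**
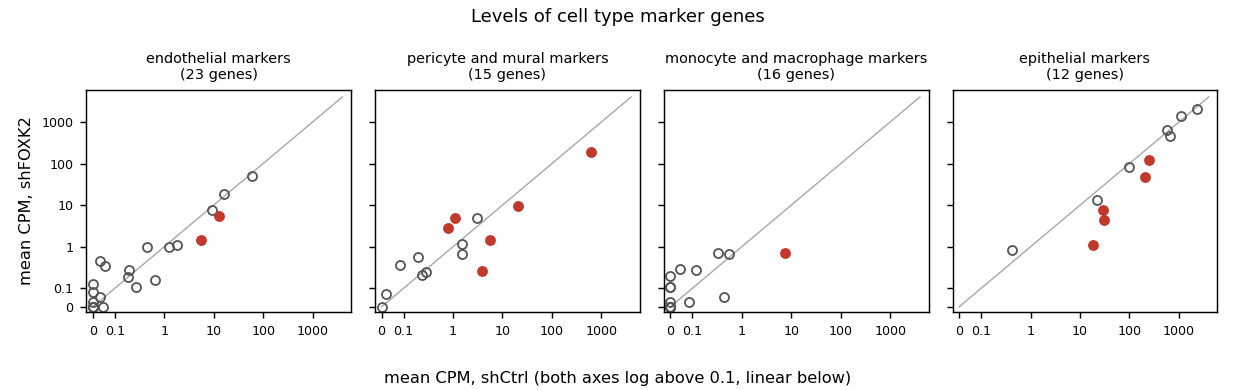
Mean CPM of each marker gene in shCtrl (horizontal) and shFOXK2 (vertical), on axes that are linear below 0.1 and logarithmic above, for endothelial, pericyte and mural, monocyte and macrophage, and epithelial markers, with filled points for an adjusted p under 0.05 and a line at equal levels. Many endothelial and most monocyte markers lie in the lower left corner near 0, whereas 11 of the 12 epithelial markers lie above 10 CPM in shCtrl.

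As for the labelled cell type, all 12 epithelial markers were tested, among them KRT8 at 1998 and 2684 CPM in shCtrl and 1854 and 2340 CPM in shFOXK2 (log2 fold change -0.16, adjusted p = 0.651, edgeR, and 0.22 and 0.21 with the GC and A offsets) and EPCAM at 105 and 94.3 against 80.1 and 86.9 CPM (-0.25, adjusted p = 0.393, edgeR). Of the 12, 5 fell and none rose: beside CDH1 these were MUC1 (-2.76, adjusted p = 1.74e-05, edgeR), ELF3 (-2.13, adjusted p = 0.000467), CLDN3 (-1.96, adjusted p = 0.000237) and CLDN4 (-1.02, adjusted p = 0.00601), the last losing its call without shFOXK2 replicate 2 (-0.78, adjusted p = 0.0583). Of 8 ovarian and tubal markers 5 were tested and all 5 passed, 3 lower and 2 higher. MUC16, which encodes the CA125 antigen, fell from 397 and 145 counts to 0 and 8 (-5.76, adjusted p = 2.45e-05, edgeR), and the folate receptor gene FOLR1 fell from 175 and 153 to 41 and 65 (-1.42, adjusted p = 0.00368, edgeR). MECOM rose (1.61, adjusted p = 0.00217, edgeR), as did the mesothelin gene MSLN (1.10, adjusted p = 0.0151, edgeR), whose call was lost without shCtrl replicate 2 (1.01, adjusted p = 0.0708). PAX8 was present at 15.7 and 20.8 CPM in shCtrl and lower in shFOXK2 (-0.88, adjusted p = 0.0263, edgeR, a call lost with the GC and A offsets at 0.0523 and 0.0787 and without shCtrl replicate 2 or shFOXK2 replicate 2 at 0.0911 and 0.113). WT1, a gene often used to mark serous ovarian cancer, had at most 2 counts in a library. Of 9 fibroblast markers 1 was tested, COL1A1, and it did not pass.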

How the data were processed

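Polyadenylated RNA was sequenced as single-end reads from 4 OVCAR5 libraries. The authors aligned reads to GRCh38 with STAR 2.5.2 and counted them per gene with HTSeq, per the study's methods and processing notes, and deposited raw counts per gene symbol, 1 table per library, without normalization. The annotation and strand setting of the counting were not given in the sources used here. Groups and replicate numbers were read from the titles.

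Low genes were removed with filterByExpr, libraries scaled by TMM (trimmed mean of M values), and the groups compared by the 2-sided quasi-likelihood test of edgeR 4.0.16 (R 4.3.3), with Benjamini-Hochberg adjustment over 16417 genes and a threshold of 0.05. Every adjusted p comes from this fit unless another is named. The words as reported refer to this fit and not to the paper. Fold changes are shFOXK2 over shCtrl. CPM are TMM-scaled, and log2 CPM used a prior count of 2. With 2 libraries against 2, an exact permutation test cannot go below p = 0.333, so the p-values rest on variance shared between genes. Intervals are 95% and, like the floor of 3 counts, cover counting error only. The test was tried on simulated counts first.

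The 9 genes and all lists were chosen with earlier results of these data known. Genes named were the 9, a fixed set of ligands, receptors and markers, up to 4 further called genes per list with the largest fold changes, neighbouring genes, and the 3 genes nearest in pattern. CD93, CD163, FCGR1A, TYROBP, AIF1, CCR2, GDF2, BMP10, EGFL7, ESAM, ICAM2, COL1A1, PLXNA1, PLXNA3, BMPR2, TGFBR1, ID2 and ID3 lie outside that rule. They were named after their values were seen.

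Positions, exon lengths and base composition came from GENCODE 44, which matched 36882 of 56655 symbols. Alternatives were library totals, DESeq2 size factors, the DESeq2 1.42.0 Wald test, no filter, at least 10 counts in every library, lowess offsets (span 0.2) on GC or A content for 14393 genes (87.7%), the replicate number as a block, and leaving out each library. Leaving out 1 library leaves its arm with a single library, which is then assumed to vary like the other arm, so calls gained or lost in those fits rest on that assumption. A block with crossed numbers was chosen after seeing the data.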

Additional observations from a re-analysis of the deposited data

How the results depend on the processing

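The number of genes past the threshold was 7940 in the main edgeR fit made here. The paper's own edgeR count, also at an FDR under 0.05, was somewhat lower. Under the alternatives the number ran from 6008 (at least 10 counts in every library) to 9207 (no filter). The median log2 fold change of the tested vascular genes was -1.41 as reported, -1.51 with no filter and -1.17 where each library had to hold 10 counts, which left 4 of them, and ran from -1.59 to -1.47 with 1 library left out. The counts of called pathway partners (30) and of called endothelial, mural and monocyte markers (9) ran from 23 to 35 and from 6 to 13, within 1.5 times the reported counts. The signs of PDGFRB, CDH5, PECAM1, CD14, ENG, NRP1 and PDGFB were kept under each alternative that tested them. Offsets on GC and A content raised the fold changes of the genes they could be fitted for by a median of 0.12 and 0.17 on the log2 scale. That median is signed, and single genes moved farther or the other way, as ANGPT1 did from 2.81 to 1.89 and 1.12. PDGFB came to -0.93 and -0.90 and ENG to 1.59 and 1.71.

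The named genes of the lists whose sign turned had not passed as reported. Under the offset on GC content, that offset together with the replicate block, and the offset on A content, VEGFB was 0.01, 0.01 and 0.11, KRT8 0.22, 0.20 and 0.21, and SEMA3A -0.35, -0.35 and -0.74. With 1 library left out, SEMA3A ran from -0.04 to 1.05, TIE1 from -0.49 to 0.90 and PTPRB from -0.66 to 0.80, and PTPRB was 0.03 with the replicate block. The cause was not tested.

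Under the replicate block 7270 genes, 30 partners and 9 markers passed, and the median of the vascular genes was -1.40. Deviations of same-numbered libraries correlated at -0.113 over the tested genes. With 2 libraries per arm, this value cannot settle whether same-numbered libraries were handled together. With crossed numbers as the block 8350 genes passed. Depth limits FLT1 and TEK, which had at most 9 and 1 counts in a library, and the size of the CDH5 drop, which is only bounded.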

Other observations

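The nearest protein-coding neighbours on either side of the 9 genes gave 18 genes, 15 of them tested, of which 4 were higher and 3 lower past the threshold in edgeR. That is near the 48.4% of all tested genes that passed, and nothing is read from it. Called neighbours not described below were PAN3 (log2 fold change 0.97) and POMP (1.04) beside FLT1, IFT74 (0.98) beside TEK, and TEX2 (-0.74) beside PECAM1. CSF1R lies 466 bases from PDGFRB and did not pass (log2 fold change 1.08, adjusted p = 0.124), where PDGFRB was at -4.16. FPGS lies 685 bases from ENG and did not pass (0.31, adjusted p = 0.322) except with the GC offset, alone (0.50, adjusted p = 0.0274) or with the replicate block (0.50, adjusted p = 0.035), and the A offset (0.56, adjusted p = 0.0183). On its other side AK1 was higher, with 131 and 138 counts in the controls against 194 and 319 (1.11, adjusted p = 0.0111, and 0.0626 without shCtrl replicate 1).

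BEAN1, 22510 bases from CDH5, fell from 47 and 47 counts to 7 and 9 (log2 fold change -2.32, adjusted p = 0.00114, edgeR). The integrin beta 1 gene ITGB1, the neighbour of NRP1 at 171699 bases, had 1060 and 601 CPM against 291 and 276 CPM (-1.55, adjusted p = 0.000619, edgeR), beside -1.41 for NRP1.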
